A study of Mus musculus with 24 samples.

Results

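The 10 genes described here encode scavenger receptors or proteins grouped with them: Cd163, Marco, Msr1, Cd36, Stab1, Colec12, Scarb1, Cd5l, Lrp1 and Olr1. They were taken by symbol from a gene count table of 47643 rows, and all 10 were found and passed the filter on low counts that left 15000 genes for testing. The table covers 24 mouse RNA-seq libraries from macrophages of 2 sources, induced pluripotent stem cells (iPSC-derived) and bone marrow (bone marrow-derived), with 3 libraries in each of 8 groups. At day 0 both sources were sampled without co-culture, and at days 3, 6 and 12 they were sampled in co-culture; the labels name no genotype, strain or animal age, and no partner cell. A difference from day 0 therefore covers time and co-culture together. The design text calls the replicates independent without saying what separated them, so the p-values measure the spread between these libraries.

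Scavenger receptors bind modified lipoproteins, dying cells, microbial surfaces and spent plasma proteins, and bring them into the cell for degradation. They share this job rather than a common fold: Msr1, Marco and Colec12 are trimeric class A receptors with a collagen-like stalk, Cd36 and Scarb1 are class B receptors with a loop anchored at both ends, and Cd163 and the secreted protein Cd5l are built of cysteine-rich repeats. Stab1 is a large multi-domain receptor that clears proteins such as the matrix protein Sparc, Lrp1 is an endocytic member of the low density lipoprotein (LDL) receptor family, and Olr1 (LOX-1) is a C-type lectin-like receptor for oxidized LDL. Macrophages of different tissues carry different sets of them.

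The libraries held between 5839316 and 11805478 counts assigned to genes. Levels are given below as CPM, the count of a gene relative to the library's total after scaling by edgeR's TMM factors. Differences are log2 fold changes ± SE from edgeR's quasi-likelihood test, fitted to all 8 groups together, and a gene is said to have risen or fallen where its Benjamini-Hochberg adjusted p over all 15000 genes was below 0.05. An exact permutation test of 3 against 3 libraries cannot give a p below 0.1, so none is quoted. All 10 macrophage markers, among them Csf1r and Adgre1, were detected in each group, with a summed level of 3350 to 4186 CPM in iPSC-derived day 0 and 7050 to 13882 CPM elsewhere. Markers of other cells were present too. The 8 fibroblast and mural cell markers summed to 1.56 to 30.3 CPM at day 0, 382 to 833 CPM at iPSC-derived day 6, 281 to 490 CPM at iPSC-derived day 12 and 112 to 204 CPM at bone marrow-derived day 12. The 9 neuron markers summed to at most 2.95 CPM at day 0 and to between 14.7 and 65.1 CPM in the co-cultured libraries. In RNA pooled over many cells, a smaller share of expressing cells cannot be told apart from less RNA per cell.

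**Figure D1:**
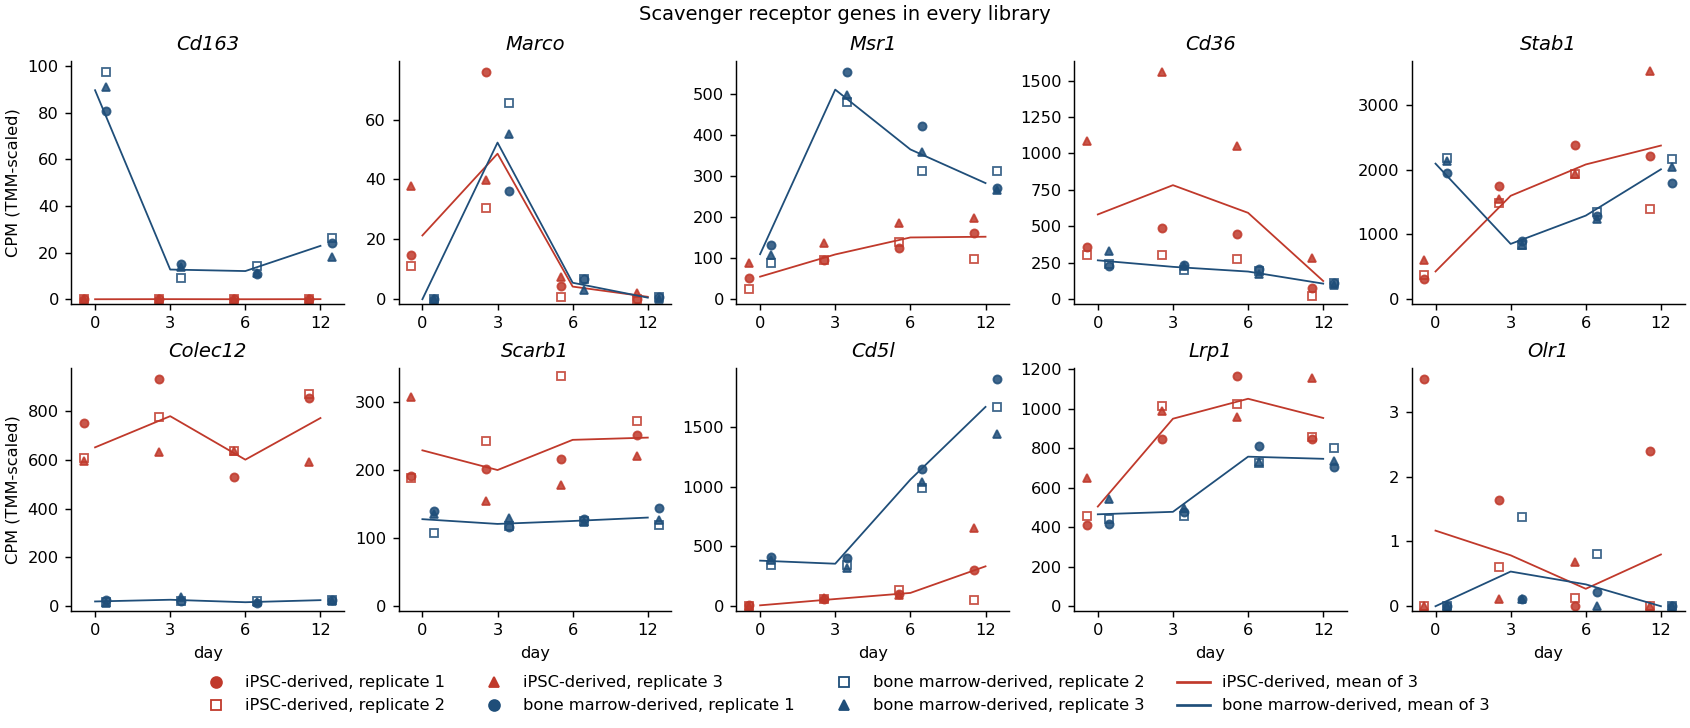
Level of each gene (y axis, TMM-scaled CPM from 0, its own scale in each panel) by day (x axis) in every library; red is iPSC-derived, blue bone marrow-derived, symbols are replicates 1 to 3 and lines join the group means. Cd163 lies at 0 to 0.12 CPM in all 12 iPSC-derived libraries, Colec12 at 530 to 931 CPM there against 11.6 to 39.4 CPM in the bone marrow-derived ones, and Marco is lower at day 12 than at day 3 in both sources.

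Levels of different genes were compared only after division by exon length. At iPSC-derived day 0 Colec12 led with 196 CPM per kb, followed by Cd36 (162 CPM per kb, 92.0 without replicate 3) and Stab1 (41.7 CPM per kb), and Cd5l stood at 3.67 CPM per kb. At bone marrow-derived day 0 the order was different, with Stab1 (204 CPM per kb) and Cd5l (187 CPM per kb) highest, Cd36 at 74.4 CPM per kb and Colec12 at 5.88 CPM per kb. After 12 days Colec12 (232 CPM per kb), Stab1 (231 CPM per kb) and Cd5l (164 CPM per kb) were the highest in iPSC-derived cells, though Cd5l stood at 147, 24.0 and 320 CPM per kb in the 3 libraries and averaged 85.4 CPM per kb without replicate 3. Cd5l (818 CPM per kb) and Stab1 (195 CPM per kb) were the highest in bone marrow-derived cells. Lrp1 and Scarb1 held a middle place throughout, at 26.2 to 59.2 and 14.2 to 29.2 CPM per kb, and Olr1 did not exceed 0.327 CPM per kb in any group.

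**Figure D2:**
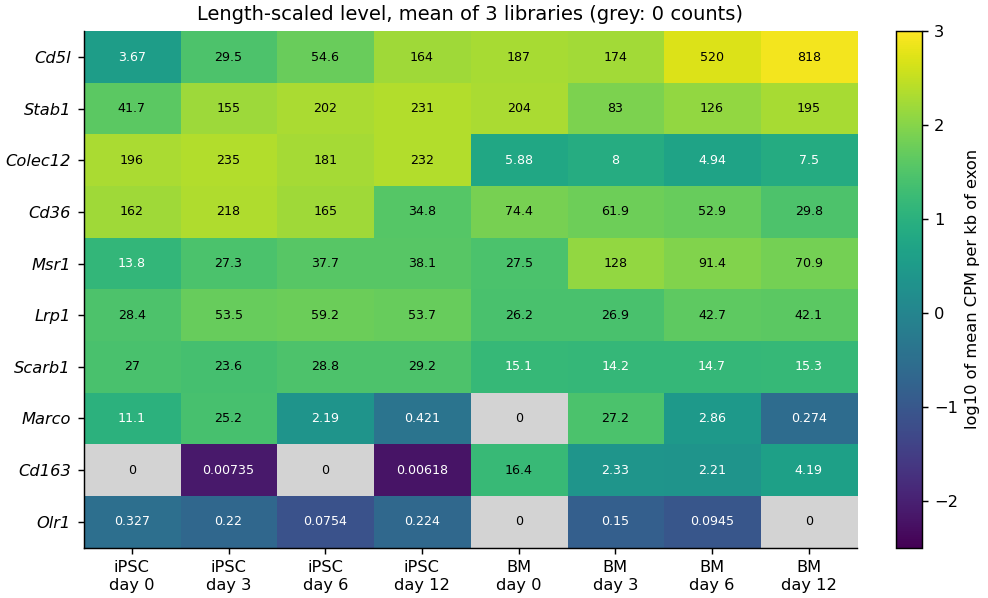
Mean CPM per kb of exon (number in each cell; colour on a log10 scale, grey for 0 counts) for the 10 genes (rows) in the 8 groups (columns), n = 3 libraries each. Colec12 is high in all 4 iPSC-derived columns and low in all 4 bone marrow-derived columns, while Stab1 is high in both sources at day 12 (231 and 195 CPM per kb).

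The sources differed in 7 of the 10 genes before co-culture, and 4 of those genes differed in the same direction on each of the 4 days. Colec12, about 30-fold, and Scarb1 were higher in iPSC-derived cells, Cd5l was lower there, and Cd163 held at most 1 count in any iPSC-derived library. Against the bone marrow-derived day 0 libraries, 3 genes were higher (Marco, Colec12, Scarb1) and 4 lower (Cd163, Msr1, Stab1, Cd5l) in iPSC-derived cells; of all genes tested, 18.9% were higher and 17.1% lower. At day 3 the count was 4 higher and 3 lower (8.94% and 8.92% of all genes), at day 6 again 4 and 3 (6.99% and 6.23%), and at day 12 it was 2 and 2 (5.03% and 4.74%). The 4 genes called at day 12 were Colec12 and Scarb1, higher in iPSC-derived cells, and Cd163 and Cd5l, lower.

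Cd163 encodes the receptor that takes up haemoglobin bound to haptoglobin (mouse chromosome 6, 124304656 to 124330527, plus strand, GRCm38, as are all gene coordinates here). In the bone marrow-derived libraries it stood at 80.8, 97.3 and 90.9 CPM at day 0, 15, 9.3 and 14 CPM at day 3, 11, 14.1 and 11.2 CPM at day 6, and 24.3, 26.3 and 18.2 CPM at day 12. Every co-cultured library was below every day 0 library, and every day 12 library was above those of days 3 and 6. The fall from day 0 was -2.82 ± 0.29 at day 3 (adjusted p = 8.1e-07), -2.89 ± 0.29 at day 6 (adjusted p = 7.2e-07) and -1.97 ± 0.28 at day 12 (adjusted p = 3.8e-05). From day 3 to day 12 the difference was 0.85 ± 0.29, with an adjusted p of 0.081 in this fit, 0.017 with DESeq2 and 0.024 in a fit of those groups alone. The 12 iPSC-derived libraries held 2 Cd163 counts between them, 1 at day 3 and 1 at day 12. With a floor of 3 counts over the 3 libraries of a group, Cd163 was at least 828-fold lower in iPSC-derived cells at day 0 (adjusted p = 5e-12) and at least 104-fold lower at day 6 (adjusted p = 1.9e-09), or 548-fold and 63.5-fold without replicate 3 of the iPSC-derived group. At day 3 the ratio of bone marrow-derived to iPSC-derived level was 338, with a 95% counting interval of 60.2 to 13375, and at day 12 it was 654 (117 to 25887); these intervals and floors cover counting error only.

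Colec12 encodes the scavenger receptor collectin-12, a class A receptor that also recognizes sugars (chromosome 18, 9707648 to 9877995, plus strand). Its 3 iPSC-derived libraries held 753, 607 and 596 CPM at day 0, 931, 775 and 633 CPM at day 3, 530, 637 and 637 CPM at day 6, and 855, 871 and 591 CPM at day 12. The corresponding bone marrow-derived values were 26.6, 18 and 14.1 CPM, then 20, 20.3 and 39.4 CPM, then 11.6, 20.8 and 16.8 CPM, and last 27.4, 24.9 and 22.5 CPM. The lowest iPSC-derived library was thus above the highest bone marrow-derived one on every day. The 4 days overlapped in iPSC-derived cells, while in bone marrow-derived cells the day 12 libraries lay above those of day 6. The difference between sources was 5.06 ± 0.25 at day 0, 4.88 ± 0.25 at day 3, 5.21 ± 0.25 at day 6 and 4.95 ± 0.25 at day 12, with adjusted p from 5.8e-12 to 5.3e-11. No change with time passed the test; from day 0 to day 12 it was 0.24 in iPSC-derived cells (95% interval -0.25 to 0.74) and 0.35 in bone marrow-derived cells (-0.18 to 0.88). The difference between those changes was -0.11 (95% interval -0.83 to 0.62, adjusted p = 0.89). Fibroblasts and endothelial cells can also make Colec12. In the iPSC-derived day 0 libraries, where the gene was already high, the fibroblast and mural markers summed to 5.36, 4.71 and 30.3 CPM, and the 8 endothelial markers to 47.9, 34.3 and 35.3 CPM, with Cldn5 and Emcn at 0. In the bone marrow-derived day 0 libraries the endothelial markers summed to 2.90 to 6.25 CPM, with Cldn5, Tie1 and Emcn at 0, and of the 6 tested 3 were higher in iPSC-derived cells and none lower (median 3.55). Their part in the Colec12 difference was not tested.

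Scarb1 encodes the high density lipoprotein receptor SR-BI, which moves cholesterol esters across the membrane (chromosome 5, 125277087 to 125341094, minus strand). The iPSC-derived libraries ranged from 155 to 339 CPM and the bone marrow-derived ones from 108 to 144 CPM, with no overlap. It was 0.84 ± 0.20 higher in iPSC-derived cells at day 0 (192, 188 and 308 against 141, 108 and 136 CPM; adjusted p = 0.0022), 0.73 ± 0.20 higher at day 3 (adjusted p = 0.013), 0.97 ± 0.20 at day 6 (adjusted p = 0.0019) and 0.93 ± 0.20 at day 12 (251, 272 and 221 against 144, 120 and 127 CPM; adjusted p = 0.0036). At day 3 the call was lost without iPSC-derived day 3 replicate 2 (adjusted p = 0.081), without bone marrow-derived day 3 replicate 1 or replicate 2 (both 0.053), and with no scaling factors (0.071). Scarb1 did not pass the test between any days compared; the change to day 12 was 0.11 in iPSC-derived cells (95% interval -0.31 to 0.53) and 0.03 in bone marrow-derived cells (-0.40 to 0.45).

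**Figure D3:**
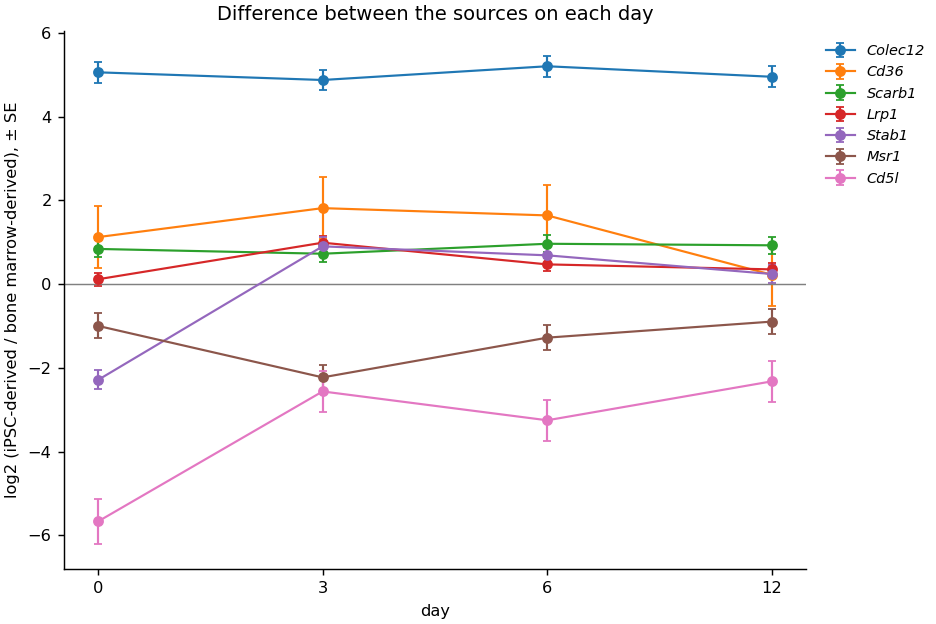
Log2 ratio of iPSC-derived to bone marrow-derived level (y axis, estimate ± SE, n = 3 against 3) on each day (x axis) for 7 genes; Cd163, Marco and Olr1 are left out because a group held 3 counts or fewer. Colec12 stays between 4.88 and 5.21, Stab1 goes from -2.29 at day 0 to 0.90 at day 3, and Cd5l from -5.67 at day 0 to -2.32 at day 12.

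Stab1 and Marco differed strongly between the sources at day 0 and not detectably at day 12, and Cd5l differed less at day 12 than at day 0. Stab1 and Cd5l were low in iPSC-derived cells at day 0 and rose there, and Marco was not detected in bone marrow-derived cells at day 0. The difference in change between the sources was tested as an interaction, coded as the iPSC-derived change minus the bone marrow-derived one. From day 0 to day 3 it was above 0 for 3 genes (Stab1, Cd5l, Lrp1) and below 0 for 2 (Marco, Msr1), with 9.03% and 11.5% of all genes called in those directions. From day 0 to day 12 it was above 0 for 2 genes (Stab1, Cd5l) and below 0 for 1 (Marco), with 9.07% and 11% of all genes. From day 3 to day 12 edgeR called 0 of the 10 genes (1.57% of all genes above 0 and 1.62% below), while Msr1 and Lrp1 had unadjusted p-values under 0.05 and DESeq2 called Msr1.

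Stab1 encodes stabilin-1, a clearance receptor of macrophages and sinusoidal endothelium (chromosome 14, 31139013 to 31168641, minus strand). In iPSC-derived cells it stood at 307, 375 and 604 CPM at day 0, 1753, 1485 and 1555 CPM at day 3, 2375, 1935 and 1934 CPM at day 6, and 2211, 1392 and 3518 CPM at day 12. In bone marrow-derived cells it was already at 1955, 2185 and 2143 CPM at day 0, then 896, 837 and 830 CPM at day 3, 1287, 1341 and 1247 CPM at day 6, and 1797, 2173 and 2050 CPM at day 12. All co-cultured iPSC-derived libraries lay above their day 0, and the bone marrow-derived ones fell at day 3 and at day 12 overlapped day 0, with replicate 1 just below its range. The iPSC-derived rise was 1.90 ± 0.23 at day 3 (adjusted p = 2.4e-06), 2.28 ± 0.23 at day 6 (2.2e-07) and 2.47 ± 0.23 at day 12 (6.7e-08). The bone marrow-derived change was -1.29 ± 0.23 at day 3 (adjusted p = 0.00022), -0.70 ± 0.23 at day 6 (0.033) and -0.06 at day 12 (95% interval -0.53 to 0.41), and the recovery from day 3 to day 12 was 1.23 ± 0.23 (0.00089). This fit shares the gene's spread with the iPSC-derived groups. In it the day 6 fall lost its call when any 1 of its 6 libraries was left out, with adjusted p from 0.0657 to 0.113. The call was also lost with no scaling factors (0.102) and kept in a fit of the groups compared alone. So the sources moved in opposite directions at first. The interaction was 3.19 ± 0.32 from day 0 to day 3 (adjusted p = 1.4e-07) and 2.53 ± 0.32 from day 0 to day 12 (4.5e-06). Between the sources Stab1 went from -2.29 ± 0.23 at day 0 (adjusted p = 6.7e-08) to 0.90 ± 0.23 at day 3 (0.0063), 0.69 ± 0.23 at day 6 (0.047) and 0.24 at day 12 (95% interval -0.23 to 0.71). At day 6 that difference also fell short without any 1 of the 6 libraries, with adjusted p from 0.068 to 0.14. Stab1 shares 109 exon bases (1.06% of its exons) with Nt5dc2 on the opposite strand, which the counting could not separate; Nt5dc2 held 8489 counts in all libraries together against 345464 for Stab1.

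Cd5l encodes AIM, a secreted protein of tissue macrophages that binds fatty acid synthase and circulating IgM (chromosome 3, 87357881 to 87371073, plus strand). It rose in both sources. The iPSC-derived libraries held 12.1, 5.25 and 5.04 CPM at day 0, 58.6, 56.4 and 65.3 CPM at day 3, 103, 136 and 95.2 CPM at day 6, and 299, 48.8 and 652 CPM at day 12. The bone marrow-derived libraries held 409, 347 and 387 CPM at day 0, 403, 343 and 320 CPM at day 3, 1145, 991 and 1039 CPM at day 6, and 1896, 1663 and 1438 CPM at day 12. Through day 6 the libraries of a group lay within 2.41-fold of each other, whereas the iPSC-derived day 12 libraries spanned 48.8 to 652 CPM, and replicate 2 of that group lay below all 3 libraries of day 3. The iPSC-derived rise was 3.01 ± 0.55 at day 3 (adjusted p = 0.00079), 3.89 ± 0.55 at day 6 (6.5e-05) and 5.48 ± 0.54 at day 12 (2.5e-06); without iPSC-derived day 12 replicate 3 the last was 4.55. From day 3 to day 12 it rose by 2.47 ± 0.50 (adjusted p = 0.0055), or 1.54 without that replicate, and the call was lost in a fit of those 2 groups alone (adjusted p = 0.119). Bone marrow-derived Cd5l changed later: by -0.10 at day 3 (95% interval -1.14 to 0.93), by 1.47 ± 0.49 at day 6 (adjusted p = 0.047) and by 2.13 ± 0.49 at day 12 (0.0048), and 2.23 ± 0.49 from day 3 to day 12 (0.0086). This fit shares the gene's spread with the iPSC-derived groups. In it the day 6 call was lost without any 1 of its 6 libraries (adjusted p from 0.0848 to 0.13). The day 3 to day 12 call was lost without bone marrow-derived day 3 replicate 3 (0.054). Both calls were kept in a fit of the groups compared alone, and the day 6 call was lost with the replicate number as a block (0.061). The gap between the sources narrowed without closing. Cd5l was lower in iPSC-derived cells on each day, by -5.67 ± 0.54 at day 0 (adjusted p = 7e-07), -2.56 ± 0.50 at day 3 (0.0015), -3.25 ± 0.50 at day 6 (0.00029) and -2.32 ± 0.49 at day 12 (0.006). Without iPSC-derived day 12 replicate 3 the day 12 difference was -3.22, and a fit of the day 12 groups alone did not call it (0.11). The interaction was 3.11 ± 0.74 to day 3 (adjusted p = 0.0052) and 3.35 ± 0.73 to day 12 (0.0030), the latter 2.41 without that replicate. In the same 3 iPSC-derived day 12 libraries the fibroblast and mural markers summed to 341, 281 and 490 CPM and the neuron markers to 19.2, 27.5 and 14.7 CPM; their part in the Cd5l spread was not tested.

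Marco encodes a class A receptor that binds bacteria and inhaled particles (chromosome 1, 120474538 to 120505024, minus strand). Its level at day 12 was below that at day 3 in both sources. The bone marrow-derived libraries held 0 counts at day 0, which allows at most 0.12 CPM over the group, then 36.3, 65.6 and 55 CPM at day 3, 6.6, 6.88 and 3.04 CPM at day 6, and 0.601, 0.892 and 0.09 CPM at day 12. The iPSC-derived libraries held 14.8, 11.2 and 38 CPM at day 0, 75.7, 30.3 and 39.7 CPM at day 3, 4.38, 0.868 and 7.42 CPM at day 6, and 0.12, 0.19 and 2.12 CPM at day 12. Day 3 was the highest group in each source, and no library of day 6 reached any library of day 3. Among bone marrow-derived libraries the gene was thus detected in the co-cultured ones alone. Against day 0 of that source Marco was at least 423-fold higher at day 3 (adjusted p = 7.7e-06) and at least 43.4-fold higher at day 6 (0.0011); at day 12 the bound was 4.11-fold and the test was not passed (0.13). DESeq2 gave an adjusted p of 0.019 for that day 12 comparison. The fall from day 3 to day 12 was -6.62 ± 0.92 in bone marrow-derived cells (adjusted p = 8.9e-05), or -7.23 without bone marrow-derived day 12 replicate 2, and -5.86 ± 0.84 in iPSC-derived cells (0.00026), or -8.14 without iPSC-derived day 12 replicate 3. Against day 0 the iPSC-derived change was 1.19 at day 3 (95% interval -0.16 to 2.54, adjusted p = 0.23), -2.31 ± 0.69 at day 6 (0.022) and -4.67 ± 0.85 at day 12 (0.00043). The day 6 call was lost without iPSC-derived day 0 replicate 3 (-1.60, adjusted p = 0.128), day 6 replicate 1 (0.072) or day 6 replicate 2 (0.0757), and in a fit of the 2 groups alone (0.0591); without day 6 replicate 3 the value was -3.03. The day 12 value was -3.95 without day 0 replicate 3 and -6.95 without day 12 replicate 3. At day 0 Marco was at least 172-fold higher in iPSC-derived than in bone marrow-derived cells (adjusted p = 1.8e-05), or at least 104-fold without iPSC-derived day 0 replicate 3. Leaving out 1 bone marrow-derived day 0 library, which lowers the depth behind the 0, brought these bounds down to 271-fold at day 3, 27.9-fold at day 6 and 110-fold between the sources at the least. From day 3 the sources overlapped, with differences of -0.11 (95% interval -1.45 to 1.24) at day 3, -0.35 (-1.86 to 1.15) at day 6 and 0.66 (-1.58 to 2.90) at day 12. The interaction had an adjusted p of 0.0002 from day 0 to day 3 and 0.0034 from day 0 to day 12; its fitted size rests on a group at 0 and is not given.

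Msr1 encodes scavenger receptor A, a receptor for acetylated and oxidized LDL (chromosome 8, 39581700 to 39642678, minus strand). It rose in both sources and was lower in iPSC-derived cells in each group mean. Its iPSC-derived levels were 51.3, 26 and 87.8 CPM at day 0, 95.9, 94.7 and 137 CPM at day 3, 126, 141 and 186 CPM at day 6, and 162, 97.9 and 197 CPM at day 12. The bone marrow-derived levels were 132, 89.5 and 109 CPM at day 0, 555, 481 and 499 CPM at day 3, 424, 312 and 360 CPM at day 6, and 271, 314 and 266 CPM at day 12. Every co-cultured library lay above every day 0 library of its source, and the bone marrow-derived peak was at day 3. The iPSC-derived rise was 0.99 ± 0.30 at day 3 (adjusted p = 0.024), 1.45 ± 0.30 at day 6 (0.0012) and 1.47 ± 0.30 at day 12 (0.0011). At day 3 the call was lost without iPSC-derived day 0 replicate 1 (adjusted p = 0.0856), day 0 replicate 2 (0.105) or day 3 replicate 3 (0.119), with no scaling factors (0.0609), and in a fit of the 2 groups alone (0.108). The bone marrow-derived rise was 2.22 ± 0.30 at day 3 (adjusted p = 1.6e-05), 1.73 ± 0.30 at day 6 (0.00025) and 1.37 ± 0.30 at day 12 (0.0018). From day 3 to day 12 the change there was -0.85 ± 0.29, with an adjusted p of 0.083 in this fit and 0.034 with DESeq2. The adjusted p was 5.8e-05 in a fit of the 2 groups alone and 4.2e-05 without the filter on low counts. The interaction to day 3 was -1.23 ± 0.42 (adjusted p = 0.043); it was lost in a fit of those groups alone (0.055) and without each of 9 single libraries among the 12 (0.06 to 0.18). Between the sources the difference was -0.997 ± 0.30 at day 0 (adjusted p = 0.013), -2.23 ± 0.30 at day 3 (1.5e-05), -1.28 ± 0.30 at day 6 (0.0055) and -0.89 ± 0.30 at day 12 (0.062). The day 0 call was lost without iPSC-derived day 0 replicate 1 (0.051), day 0 replicate 2 (0.06) or bone marrow-derived day 0 replicate 1 (0.08). The day 12 difference was called by DESeq2 (0.022), with no scaling factors (0.019), without the filter on low counts (8.2e-05) and in a fit of the 2 groups alone (0.047). It was also called without iPSC-derived day 12 replicate 3 (0.048), but not without any other single library or with DESeq2's size factors.

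Lrp1 encodes a large endocytic receptor for apolipoprotein E particles, protease complexes and dying cells (chromosome 10, 127538161 to 127621148, minus strand). The 2 sources held like levels at day 0, 410, 456 and 646 CPM in iPSC-derived and 414, 439 and 542 CPM in bone marrow-derived cells. Lrp1 then stood at 844, 1015 and 986 CPM, 1167, 1022 and 960 CPM, and 846, 856 and 1155 CPM at iPSC-derived days 3, 6 and 12. The bone marrow-derived libraries held 478, 457 and 497 CPM, 811, 726 and 732 CPM, and 705, 799 and 733 CPM on those days. The iPSC-derived libraries were above their day 0 range from day 3, and the bone marrow-derived ones from day 6. The iPSC-derived rise was 0.91 ± 0.15 at day 3 (adjusted p = 0.0001), 1.06 ± 0.15 at day 6 (1.5e-05) and 0.92 ± 0.15 at day 12 (8e-05). The bone marrow-derived change was 0.04 at day 3 (95% interval -0.28 to 0.35), 0.70 ± 0.15 at day 6 (adjusted p = 0.0016) and 0.68 ± 0.15 at day 12 (0.0017), and 0.64 ± 0.15 from day 3 to day 12 (0.0073). The interaction to day 3 was 0.87 ± 0.22 (adjusted p = 0.0044; 0.053 with no scaling factors), and to day 12 it was 0.24 (95% interval -0.21 to 0.68). The sources differed by 0.99 ± 0.15 at day 3 (adjusted p = 3.3e-05) and 0.47 ± 0.15 at day 6 (0.04). The day 6 difference lost its call without 5 of its 6 libraries in turn (0.055 to 0.14), the exception being iPSC-derived day 6 replicate 3. At day 12 the difference was 0.35 (95% interval 0.04 to 0.67, adjusted p = 0.16). Fibroblasts and neurons also make Lrp1; the fibroblast and mural markers summed to 24.3 to 92.3 CPM at iPSC-derived day 3 and to 382 to 833 CPM at day 6, and to 19.2 to 32.6 and 33.1 to 63.4 CPM on those days in bone marrow-derived cells. The neuron markers summed to 21 to 50.6 and 26.3 to 48.5 CPM at iPSC-derived days 3 and 6 and to 49.0 to 65.1 and 27.5 to 55.2 CPM at bone marrow-derived days 3 and 6. Their part in the rise was not tested.

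Cd36 encodes a fatty acid transporter and receptor for oxidized lipoproteins and thrombospondin (chromosome 5, 17781690 to 17888801, minus strand). It was the most variable member among iPSC-derived libraries with appreciable levels: 356, 305 and 1084 CPM at day 0, 489, 302 and 1557 CPM at day 3, 449, 277 and 1052 CPM at day 6, and 74.5, 18.9 and 282 CPM at day 12. On all 4 days replicate 3 was the highest and replicate 2 the lowest, and the day 12 range spanned 14.9-fold. The bone marrow-derived libraries held 229, 242 and 330 CPM at day 0, 234, 202 and 231 CPM at day 3, 204, 193 and 172 CPM at day 6, and 113, 111 and 97 CPM at day 12. Each source had its lowest group at day 12, and no day 12 library overlapped day 0 or day 3 of its source. The iPSC-derived fall was -2.22 ± 0.73 against day 0 (adjusted p = 0.043) and -2.64 ± 0.73 against day 3 (0.042). The first was lost without day 0 replicate 3 (-1.40, adjusted p = 0.226), day 12 replicate 1 (0.147) or day 12 replicate 2 (0.132), and in a fit of those 2 groups alone (0.126); without day 12 replicate 3 it was -3.64. The second was lost without day 3 replicate 3 (-1.63, adjusted p = 0.22), day 3 replicate 1 (0.0627), day 12 replicate 1 (0.15) or day 12 replicate 2 (0.129), with no scaling factors (0.0546) and in a fit of those 2 groups alone (0.177); without day 12 replicate 3 it was -4.08. The bone marrow-derived change at day 12 was -1.32 against day 0 (95% interval -2.87 to 0.23, adjusted p = 0.23), in a fit where the gene's spread is shared with the iPSC-derived groups. A fit of bone marrow-derived days 0 and 12 alone gave -1.30 with an adjusted p of 1.1e-05. Between the sources Cd36 was 1.12 at day 0 (95% interval -0.42 to 2.67), 1.82 at day 3 (adjusted p = 0.11), 1.64 at day 6 (0.18) and 0.22 at day 12 (-1.33 to 1.78), and none passed the test in this fit. The day 3 difference was called in a fit of those 2 groups alone (1.84, adjusted p = 0.0486). Without the filter on low counts the differences at days 0, 3 and 6 were called (1.13, 1.81 and 1.64, adjusted p = 1.5e-09, 1.1e-22 and 1.3e-18), as were the bone marrow-derived falls to day 12 from day 0 and from day 3 (3.2e-12 and 3.2e-08). With the filter, nearly the same differences had an adjusted p of 0.11 at day 3 and 0.18 at day 6. The iPSC-derived libraries spanned 302 to 1557 CPM at day 3, and at day 0 the sources overlapped (305 against 330 CPM). What lowered the p-values without the filter was not tested, and no weight is put on them here.

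Olr1 (chromosome 6, 129485244 to 129507165, minus strand) was close to its detection limit. Its highest library was iPSC-derived day 0 replicate 1 with 32 counts (3.5 CPM), while the other 2 libraries of that group held 0. In the day 12 groups iPSC-derived replicate 1 held 20 counts (2.4 CPM) and the other 5 libraries 0. The remaining counts lay at days 3 and 6, with at most 1.64 CPM in iPSC-derived and 1.39 CPM in bone marrow-derived cells. Olr1 passed the test in none of the 15 comparisons; without the filter on low counts it was called between the sources at day 0 (adjusted p = 0.013) and day 12 (0.04), both resting on that 1 library of each iPSC-derived group.

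Counted over the class, the iPSC-derived cells gained transcripts of 4 genes by day 3 (Msr1, Stab1, Cd5l, Lrp1) and lost none, where 11.2% of all genes rose and 8.14% fell. At day 6 the same 4 symbols were higher and Marco lower (14.3% and 11% of all genes), and at day 12 the 4 were higher and Marco and Cd36 lower (14% and 10.7%). The median change of the 10 genes in iPSC-derived cells was 0.95 at day 3, 0.06 at day 6 and 0.58 at day 12, against 0.04, 0.09 and 0.04 over all genes tested. Cd163 is among the 10, with 0 counts at iPSC-derived day 0 and at most 1 in a later group. Its fitted change carries no size, and the medians depend on where that value ranks. The 10 macrophage markers had medians of 1.38, 0.87 and 0.96 in the same comparisons, with 7, 7 and 8 higher and none lower. From day 3 to day 12 Cd5l rose and Marco and Cd36 fell (4.07% and 4.82% of all genes). In bone marrow-derived cells Marco and Msr1 were higher and Cd163 and Stab1 lower at day 3 (11.9% and 6.61% of all genes). At day 6 Marco, Msr1, Cd5l and Lrp1 were higher and Cd163 and Stab1 lower (12.7% and 6.89%). At day 12 Msr1, Cd5l and Lrp1 were higher and Cd163 lower (14.7% and 9.08%), with a median of 0.19 over the 10 genes against 0.04 over all. That median includes Marco and Olr1, which held 0 counts at bone marrow-derived day 0. From day 3 to day 12 Stab1, Cd5l and Lrp1 rose and Marco fell (4.2% and 4.25% of all genes). The comparisons with a given day 0 share its 3 libraries.

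**Figure D4:**
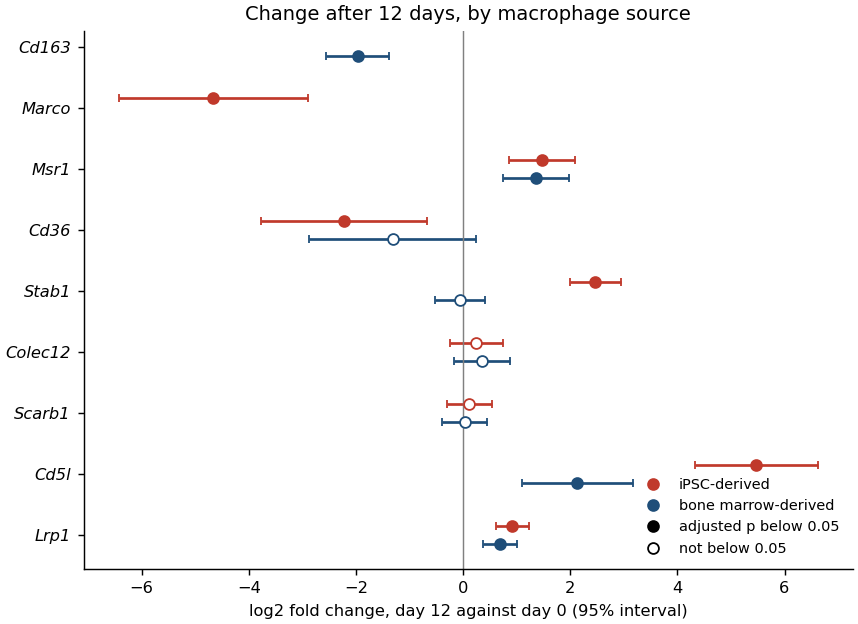
Log2 fold change from day 0 to day 12 (x axis, estimate with 95% interval, n = 3 against 3) for 9 genes (y axis), red iPSC-derived and blue bone marrow-derived; filled points have an adjusted p below 0.05, and comparisons with a group of 3 counts or fewer are left out, as is Olr1, with counts in 1 library of each iPSC-derived group. Stab1 is at 2.47 in iPSC-derived and -0.06 in bone marrow-derived cells, Msr1 at 1.47 and 1.37, and Colec12 and Scarb1 lie across 0 in both.

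The promoters of Cd163, Marco, Cd5l and Stab1 are shown because these genes changed in different directions. They were chosen from the 7 of the 10 genes that the RefSeq table (GRCm38.p6) held, each as 300 bases from 250 before to 50 after the annotated start. In all, 9 motifs were searched on both strands, of which 4 are marked in capitals: GAGGAA, a core bound by the macrophage factor PU.1 (in 28.3% of the 32851 promoters in the table), TGCTGA, the half-site of MAF factors (19.5%), TGANTCA of AP-1 (7.81%) and TTGCNNAA of C/EBP factors (10.8%). Searched but not marked were TGTGGT (16.8%), AGGTCA (16.3%), TATAAA (13.6%), the interferon response motif (3.44%) and 2 MAF half-sites facing each other, a pattern that overlaps TGCTGA, was added after the Cd5l sequence was seen and is present in 2 promoters of the table. Positions below count from the start site, with negative numbers before it. The windows are chr6:124304401-124304700 on the plus strand for Cd163, chr1:120504975-120505274 on the minus strand for Marco, chr3:87357631-87357930 on the plus strand for Cd5l and chr14:31168592-31168891 on the minus strand for Stab1, each written 5′ to 3′ in the direction of the gene.
Cd163: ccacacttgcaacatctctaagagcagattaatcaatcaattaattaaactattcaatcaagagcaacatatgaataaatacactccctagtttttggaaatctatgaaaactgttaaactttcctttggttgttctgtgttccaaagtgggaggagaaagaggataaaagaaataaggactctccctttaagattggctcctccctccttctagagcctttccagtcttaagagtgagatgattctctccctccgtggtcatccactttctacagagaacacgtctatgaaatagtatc
Marco: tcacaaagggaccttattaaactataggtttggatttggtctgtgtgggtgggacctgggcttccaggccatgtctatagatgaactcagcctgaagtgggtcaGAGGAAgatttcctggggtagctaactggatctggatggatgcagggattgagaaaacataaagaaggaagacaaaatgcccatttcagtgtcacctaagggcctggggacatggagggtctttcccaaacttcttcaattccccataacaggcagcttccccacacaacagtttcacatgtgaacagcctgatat
Cd5l: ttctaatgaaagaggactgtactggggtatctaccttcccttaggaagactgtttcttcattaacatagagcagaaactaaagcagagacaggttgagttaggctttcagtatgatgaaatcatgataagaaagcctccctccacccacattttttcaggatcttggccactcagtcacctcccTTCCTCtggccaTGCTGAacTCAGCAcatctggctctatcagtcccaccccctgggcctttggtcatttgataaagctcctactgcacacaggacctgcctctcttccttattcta
Stab1: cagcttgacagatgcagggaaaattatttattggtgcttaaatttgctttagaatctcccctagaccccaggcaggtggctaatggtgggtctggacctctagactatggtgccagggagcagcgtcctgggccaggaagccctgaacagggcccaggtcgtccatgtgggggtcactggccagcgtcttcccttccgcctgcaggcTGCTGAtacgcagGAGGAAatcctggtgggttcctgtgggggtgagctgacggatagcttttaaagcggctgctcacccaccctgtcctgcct
The Cd5l window held GAGGAA from -66, written on the opposite strand, and the facing pair of half-sites from -54. The Stab1 window held TGCTGA from -43 and GAGGAA from -30, the Marco window GAGGAA from -146, and the Cd163 window none of the 9 motifs. Of the promoters not shown, Cd36 held TGCTGA from -11 and AGGTCA from -228, Olr1 held GAGGAA from -76, TGANTCA from -60 and AGGTCA from -175, and Lrp1 held none. For Cd36 and Cd163 the last 50 bases of the window lay in no GENCODE transcript of the gene. The Cd36 window also lies inside the span of the gene, so its positions count from an internal annotated start. A match describes these letters only and shows no binding.

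Among 8 transcription factors linked to these genes, 2 rose and 1 fell at iPSC-derived day 12, and 1 rose and 4 fell at bone marrow-derived day 12; over all genes the shares were 14% and 10.7% in the former and 14.7% and 9.08% in the latter. Maf, a factor of the bZIP family, rose by 1.04 ± 0.28 in iPSC-derived cells (adjusted p = 0.0088) and fell by 1.02 in bone marrow-derived cells (0.0095). Rxra, a nuclear receptor partner, rose by 1.18 ± 0.21 in iPSC-derived cells (adjusted p = 0.00018). Pparg, a lipid-sensing nuclear receptor that activates Cd36, fell from 24.1 ± 6.23 to 3.21 ± 1.31 CPM in bone marrow-derived cells (-2.90 ± 0.45, SD and n = 3 for the levels, adjusted p = 4.9e-05), and the LXR gene Nr1h2 fell by 0.49 (0.015). Between the sources at day 12, 1 factor was higher in iPSC-derived cells (Pparg, 1.64 ± 0.45, adjusted p = 0.022) and 1 lower, Spic, a factor of haem-recycling red pulp macrophages, named here after its values were seen. Spic had 0 counts in the iPSC-derived day 12 libraries and 4.49 ± 2.41 CPM (SD, n = 3) in the bone marrow-derived ones (adjusted p = 2e-05).

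Of 20 other scavenger receptor genes, 15 were tested. At iPSC-derived day 12, 3 rose and 1 fell (14% and 10.7% of all genes), with a median of 0.94 against 0.04 over all genes. At bone marrow-derived day 12, 4 rose and 4 fell (14.7% and 9.08% of all genes), with a median of 0.05. Cxcl16, a membrane-bound chemokine that also binds oxidized LDL, rose in both, by 2.92 ± 0.22 (adjusted p = 1.4e-09) and 1.38 ± 0.21 (2.7e-05). The mannose receptor gene Mrc1 rose by 1.82 ± 0.32 in iPSC-derived cells (adjusted p = 0.00041), as did the lysosomal membrane gene Scarb2 by 0.94 ± 0.15, and the hyaluronan receptor gene Cd44 fell by 0.78. Among bone marrow-derived cells the endothelial-type scavenger receptor gene Scarf1 rose by 1.31 ± 0.39 (adjusted p = 0.017). The stabilin relative Stab2 fell from 63.2 ± 14.1 to 12.1 ± 2.26 CPM (-2.38 ± 0.64, adjusted p = 0.013), the beta-glucan receptor gene Clec7a by 2.22 and the lysosomal glycoprotein gene Cd68 by 0.72. Of the LDL receptor family, 10 of 11 genes were tested, with 3 rises and 3 falls at iPSC-derived day 12 and 3 rises and 2 falls at bone marrow-derived day 12 (14% and 10.7%, and 14.7% and 9.08%, of all genes). The sorting receptor gene Sorl1 rose by 2.98 ± 0.37 in iPSC-derived cells (adjusted p = 7.5e-06). The Wnt co-receptor gene Lrp6 rose there by 1.75 ± 0.22 and fell by 0.83 in bone marrow-derived cells, and Lrp12 fell in both, by 1.23 and 1.26.

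Of 15 ligands and partners of the receptors tested, 5 rose and 1 fell at iPSC-derived day 12 and 9 rose and 2 fell at bone marrow-derived day 12, where 14% and 10.7%, and 14.7% and 9.08%, of all genes did. Apoe, the apolipoprotein bound by Lrp1, rose by 3.82 ± 0.18 in iPSC-derived cells (adjusted p = 7e-12). Lrpap1, the chaperone that keeps Lrp1 free of ligands during its synthesis, fell there from 1082 ± 93.3 to 255 ± 31.7 CPM (-2.08 ± 0.12, adjusted p = 6.2e-11), while Lrp1 rose; in bone marrow-derived cells Lrpap1 went from 154 ± 21.3 to 218 ± 8.97 CPM (0.51 ± 0.13, 0.0043; named for comparison after its values were seen). Sparc, the matrix protein cleared through stabilin-1, rose by 4.66 ± 0.50 in iPSC-derived cells (adjusted p = 1.8e-06) and by 6.92 ± 0.73 in bone marrow-derived cells (1.1e-07), to 81.7 ± 29.7 and 90.9 ± 8.87 CPM. Sparc is made by fibroblasts and glia. Of 8 fibroblast and mural markers 6 rose and none fell at day 12 in each source. Of 8 astrocyte markers tested 6 rose and 2 fell in iPSC-derived cells, and 6 rose and 1 fell in bone marrow-derived cells. Their part in the Sparc rise was not tested. Thbs1, a Cd36 ligand, rose by 1.87 ± 0.24 in iPSC-derived cells (adjusted p = 4.4e-06) and fell by 1.45 in bone marrow-derived cells (4.1e-05). In the latter the lipase gene Lpl rose by 1.64 ± 0.23 and the co-receptor gene Tlr2 by 1.13 ± 0.13, and Tlr6 fell by 0.99. Of 12 genes that handle the cargo after uptake, 2 rose and 5 fell at iPSC-derived day 12 and 1 rose and 7 fell at bone marrow-derived day 12, so that the rises were near or below the 14% and 14.7% of all genes and the falls above 10.7% and 9.08%. The cholesterol exporter genes Abcg1 (4.24 ± 0.31, adjusted p = 2e-08) and Abca1 (2.27 ± 0.15, 3.6e-10) rose in iPSC-derived cells, and Abca1 rose by 0.50 ± 0.15 in bone marrow-derived cells (0.018). The fatty acid binding protein gene Fabp5 fell in both sources, by 2.05 and 2.24, as did the haem breakdown enzyme gene Blvrb, by 1.28 and 1.17; the lipid droplet gene Plin2 fell by 0.49 in iPSC-derived cells. Slc40a1 encodes ferroportin, which exports iron from cells. It went from 1467 ± 88.0 to 88.6 ± 11.4 CPM in the bone marrow-derived libraries (-4.05 ± 0.34, adjusted p = 1.6e-07), in which Cd163 fell as well.

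For each gene the 3 most alike in level over the 24 libraries were found by Pearson's r of log2 CPM, a description in which the groups and the sources are shared by all points. They were Padi4 (0.97), Klra3 and Cd93 for Cd163, Ptchd1 (0.98), Slc24a5 and Jup for Colec12, and Acp5 (0.88), Ocstamp and Slc31a2 for Marco. Msr1 was most like Cp (0.94), Gpr65 and Vcam1, Stab1 like Fbxw4 (0.92), Galc and Selenop, Cd5l like Tbxas1 (0.91), Rhoh and Camk1d, and Lrp1 like Camsap1 (0.91), Rtn4rl1 and Palld. For Scarb1 they were Slc35c2 (0.90), Rab1b and Wdr1, and for Cd36 Cdk15 (0.85), Tenm4 and Tmem202; for Olr1 no gene exceeded 0.67.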

How the data were processed

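RNA from 24 mouse macrophage cultures was made into SMART-seq v2 libraries and sequenced as read pairs, per the labels' protocols. The reads were aligned with STAR to mm10 (GRCm38), per the submitters' processing notes. The authors deposited 1 table of raw counts per gene, made with featureCounts 1.5.0-p1 on GENCODE vM9 exons, without a strand option or multi-mapped reads, per the file headers; genes that overlap on opposite strands therefore share reads. Groups came from the sample labels, and the labels name no run or lane for a library. The 419 rows without a gene name (0.0635% of counts) were kept in scaling, filtering and testing, and were left out of the search for the genes most alike. The deposited counts were analysed with edgeR 4.0.16 in R 4.3.3: TMM scaling, filterByExpr over the 8 groups (minimum count 10), 1 coefficient per group, robust quasi-likelihood tests of 15 contrasts, Benjamini-Hochberg adjustment over 15000 genes. The script was tested on simulated data. CPM per kb used the deposited exon lengths. No library pair was a duplicate (0 identical pairs, lowest chi-square per degree of freedom 6.08).

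The members and lists were chosen with earlier results of these data known. All 10 members are described; of each other list, the text names up to 3 called genes per direction, those with the largest day 12 change whose higher group averaged 20 CPM or more. Where a group held 0 counts, the bound uses 3 counts over its 3 libraries. Alternatives were DESeq2 1.42.0, its size factors, no scaling, no filter, a fit of the compared groups alone, the replicate number as a block, and each library left out in turn. ERCC spike-ins named in the protocol have 0 rows in the table. One gene of the transcription factor list is not reported here, and its list is counted without it.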

Additional observations from a re-analysis of the deposited data

Results flagged for a closer look

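The change from day 0 differed between the sources, by edgeR's interaction test with Benjamini-Hochberg adjustment, for 5 of the 10 genes at day 3 and for 3 at day 12. Of all genes, 9.03% were called above 0 and 11.5% below 0 at day 3, and 9.07% and 11% at day 12. Values are the iPSC-derived change minus the bone marrow-derived change on the log2 scale, each from 3 libraries in each of 4 groups. From day 0 to day 3 it was 3.19 ± 0.32 for Stab1 (adjusted p = 1.4e-07), which rose in iPSC-derived and fell in bone marrow-derived cells. It was 3.11 ± 0.74 for Cd5l (adjusted p = 0.0052) and 0.87 ± 0.22 for Lrp1 (0.0044). The Lrp1 call was lost with no scaling factors (0.053). For Msr1 it was -1.23 ± 0.42 (adjusted p = 0.043), a call lost in a fit of those groups alone (0.055) and without each of 9 single libraries among the 12 (0.06 to 0.18). For Marco the adjusted p was 0.000198, and no size is given because bone marrow-derived day 0 held 0 counts. From day 0 to day 12 it was 2.53 ± 0.32 for Stab1 (adjusted p = 4.5e-06) and 3.35 ± 0.73 for Cd5l (0.0030), or 2.41 for Cd5l without iPSC-derived day 12 replicate 3. For Marco the adjusted p was 0.00337.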

How the results depend on the processing

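The 150 member results (10 genes in 15 comparisons) were recomputed under the alternatives, of which DESeq2 gave 146 and the fit of the compared groups alone 131, and no called value changed direction. With DESeq2's size factors all 150 stayed on their side of the threshold. No scaling kept 142, lost 7 calls and added 1, and moved the median of all genes by between -0.30 and 0.17 (-0.18 at iPSC-derived day 3, 0.17 at bone marrow-derived day 12, -0.20 and -0.22 between the sources at days 3 and 12, -0.27 and -0.30 in the interactions from day 0). No filter kept 133, lost 1 and added 16; DESeq2 kept 141 of 146 and added 5; the fit of the compared groups alone kept 116 of 131, lost 7 and added 8. Leaving out 1 library kept 1024 of 1080, lost 52 and added 4. The members called from day 3 to day 12 were 3 in iPSC-derived cells and 1 in the fit of the compared groups alone, and 4 and 7 in bone marrow-derived cells. For the interaction from day 3 to day 12 they were 0, against 2 without the filter, 1 with DESeq2 and 1 in the fit of the compared groups alone. With 1 library left out the members called were 3 to 4, 4 to 5, 5 to 6 and 2 to 3 in the iPSC-derived comparisons in the order of the report (days 3, 6 and 12 against day 0, day 12 against day 3). In bone marrow-derived cells they were 4 in each comparison with day 0 (6 with all libraries at day 6) and 3 to 4 from day 3 to day 12. Between the sources they were 6 to 7 at days 0 and 3, 5 to 6 at day 6 and 4 to 5 at day 12, and in the interactions 4 to 5, 3 and 0 to 2, the 2 without iPSC-derived day 12 replicate 3. Over all genes, the fit of the compared groups alone called 1849 at iPSC-derived day 3 (2907 in the main analysis), 1938 at day 6 (3804), 2106 at day 12 (3706) and 324 from day 3 to day 12 (1334), and 2751 from day 3 to day 12 in bone marrow-derived cells (1267). The interaction from day 3 to day 12 called 947 genes without the filter and 867 with DESeq2 (478). Leaving out 1 library gave 780 to 1503 and 790 to 960 genes from day 3 to day 12 in the 2 sources and 292 to 848 for that interaction. The causes were not tested.

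The replicate numbers were not treated as pairs in the main analysis. Of 18 same-numbered pairs of iPSC-derived libraries 4 had deviations correlated above 0.1 (mean 0.043, against -0.022 over pairs of unlike number). Of 18 bone marrow-derived pairs 0 did (mean 0.012, against -0.0061). In the iPSC-derived libraries 10 of 12, and in the bone marrow-derived 8 of 12, were most alike to a library of their own number. Library names in the file headers run by replicate number in the iPSC-derived samples and by day in the bone marrow-derived ones. Libraries of the same number were thus somewhat more alike, most so in the iPSC-derived samples. The labels do not say what such libraries share, so whether the numbers mark pairs is not known. With the replicate number as a block 141 of 150 member results kept their side, 8 gained a call and 1 lost it (Cd5l at bone marrow-derived day 6, adjusted p = 0.061). The replicate block called 2 members (Msr1, Cd36) in the interaction from day 3 to day 12, against 0, and Cd36 in the interaction from day 0 to day 12 (-1.31, adjusted p = 0.016). In the main analysis the former called 1.57% of all genes above 0 and 1.62% below. The share of all genes with the block is not given, so the added calls are not read as particular to the members. With that block bone marrow-derived Cd36 was called from day 0 to day 12 (-1.31, adjusted p = 0.0011) and from day 3 to day 12 (-1.05, 0.014), as were Marco (0.049) and Msr1 (0.0072) in those 2 comparisons and Msr1 between the sources at day 12 (0.015). Depth limits Cd163 and Olr1 in iPSC-derived cells, where 1 count is about 0.1 CPM.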
